A study of Homo sapiens with 23 samples.

Results

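RAB3B, SLC16A6, GPR15, CDHR3, LNCAROD, PKIB and STK39 are 7 genes that were selected on their RNA levels, for large rises in BAP1 knockout HCT116 cells. The rule did not name the group against which a rise was taken. Each stands for its transcript row of highest mean count, and all 7 were among the 16831 genes tested out of 28105 genes with a symbol. All 7 would also have passed the filter on low counts without the BAP1 KO libraries. HCT116 is a human colorectal cancer cell line. Polyadenylated RNA was sequenced in 8 of the 23 samples of the series, 2 libraries in each of 4 groups: WT, MLL4 KO, control and BAP1 KO. The genotype given for the control libraries is also WT, and the study sets BAP1 KO beside control and MLL4 KO beside WT.

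The enzyme MLL4, product of the KMT2D gene, deposits H3K4me1 at enhancers, whereas BAP1 takes ubiquitin off histone H2A. The names of the deposited tables add osTir1, a plant F-box protein used in degron systems, for control and BAP1 KO but not for WT and MLL4 KO. Those names also mention STAR and exons for control and BAP1 KO alone, so a level set across the pairs (WT beside control, BAP1 KO beside WT) compares other lines and possibly another way of counting. In each group but control, the replicates carry differing numbers there that may be clone numbers. The labels do not say whether replicates are separate cultures or clones, and p-values measure only the spread between these libraries. Counts summed over genes ranged from 24.8 to 42.2 M per library (M, 1e6 reads).

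The mRNA of the targeted genes was not lower in either knockout. The level of BAP1 was 56.7 and 62.1 CPM in the control libraries, compared with 67.4 and 57.4 CPM after BAP1 knockout. For KMT2D the WT libraries gave 309 and 371 CPM, compared with 280 and 406 CPM after MLL4 knockout. These levels do not show whether the protein was lost, so each group is named here by its label. CPM are counts per 1e6 counts of the library after TMM scaling, which adjusts for composition. Of 10 colon epithelial markers 9 were tested and LGALS4, at 0 to 0.287 CPM, was nearly absent, with a summed level of 3755 to 3886 CPM in the pair of WT libraries, 5420 to 5498 in MLL4 KO, 5941 to 5953 in control and 3055 to 3621 in BAP1 KO. KRT8, KRT18 and KRT19 carried most of the sum, and single markers went other ways. EPCAM was 214 and 282 CPM in WT but 109 and 119 in MLL4 KO, and CDH1 (E-cadherin) was 233 and 239 CPM in control but 28.1 and 70.2 in BAP1 KO. The part of these differences in the results was not tested.

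The 7 genes have differing known roles. RAB3B is a small GTPase of secretory vesicles that cycles between a GTP-bound form on the vesicle and a GDP-bound form held in the cytosol. SLC16A6 belongs to the monocarboxylate transporter family, GPR15 is a G protein-coupled receptor known for homing T cells to the colon, and CDHR3 is a cadherin-related adhesion protein of airway ciliated cells that serves as a receptor for rhinovirus C. LNCAROD is a long noncoding RNA of the DKK1 locus. PKIB is a small protein that inhibits the catalytic subunit of protein kinase A, and STK39 (SPAK) is the kinase through which WNK kinases control cation-chloride cotransporters.

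To show the start regions of the selected genes, the 250 bases before their annotated starts were read from the RefSeq promoter table (GRCh38.p14), which holds 9 entries for 6 of the 7. The 5 shown are the 3 that hold an AP-1 motif, the only member window with a TATA box, and the window richest in CpG. They run 5′ to 3′ on the gene's strand. RAB3B lies at chr1:51990701-51990950 (minus strand), LNCAROD entry 1 of 2 at chr10:52455273-52455522 (minus), PKIB entry 3 of 3 at chr6:122652479-122652728 (plus), GPR15 at chr3:98531728-98531977 (plus) and STK39 at chr2:168247596-168247845 (minus). Capitals mark matches on either strand. The AP-1 motif was searched as TGANTCA and the GC box as GGGCGG. For the TATA box the letters were TATAAA, and the CCAAT box was searched as its name spells it.
RAB3B: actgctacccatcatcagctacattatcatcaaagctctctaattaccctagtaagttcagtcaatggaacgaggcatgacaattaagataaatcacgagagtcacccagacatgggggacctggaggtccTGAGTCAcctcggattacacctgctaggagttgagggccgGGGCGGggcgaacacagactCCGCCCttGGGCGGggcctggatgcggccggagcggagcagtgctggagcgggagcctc
LNCAROD: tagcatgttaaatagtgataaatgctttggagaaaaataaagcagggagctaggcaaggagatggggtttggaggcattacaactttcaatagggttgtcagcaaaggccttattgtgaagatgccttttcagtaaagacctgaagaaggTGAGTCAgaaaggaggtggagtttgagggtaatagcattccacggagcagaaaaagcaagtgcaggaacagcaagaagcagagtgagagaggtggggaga
PKIB: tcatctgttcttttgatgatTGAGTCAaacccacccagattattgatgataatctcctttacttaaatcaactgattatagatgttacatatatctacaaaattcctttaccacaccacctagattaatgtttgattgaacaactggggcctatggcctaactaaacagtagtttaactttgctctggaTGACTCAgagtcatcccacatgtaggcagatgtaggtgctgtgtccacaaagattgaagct
GPR15: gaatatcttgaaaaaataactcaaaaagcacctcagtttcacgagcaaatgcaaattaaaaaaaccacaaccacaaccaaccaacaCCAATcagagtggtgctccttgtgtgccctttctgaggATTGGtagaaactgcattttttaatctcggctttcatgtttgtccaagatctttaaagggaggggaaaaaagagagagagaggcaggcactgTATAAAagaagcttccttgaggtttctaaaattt
STK39: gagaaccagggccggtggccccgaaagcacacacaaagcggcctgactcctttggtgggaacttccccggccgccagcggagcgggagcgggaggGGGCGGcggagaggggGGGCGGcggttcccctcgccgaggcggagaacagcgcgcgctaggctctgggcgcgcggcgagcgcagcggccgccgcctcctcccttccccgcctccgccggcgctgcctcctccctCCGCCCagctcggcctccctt

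An AP-1 match lay 119 bases before the start in RAB3B, 100 bases before it in this LNCAROD entry, and 230 and 61 bases before it in this PKIB entry. Of all 35116 windows of the same length, 6.57% held one. The CRE motif (TGACGTCA) was in no member window and in 1.65% of all windows. Of all windows, 42.6% held a GC box, 10.7% a TATA box and 32% a CCAAT box. The STK39 window had 32 CpG and that of RAB3B 12, while GPR15 had 2, CDHR3 1 and both LNCAROD entries 1. The 3 PKIB entries had 18, 24 and 0, and the median of all windows was 11 (quartiles 3 and 23). None of these motifs contains another. A match describes these letters and shows no binding.

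RAB3B had the highest level of the 7 in BAP1 KO by CPM, a scale that takes no account of transcript length. It stood at 83.7 and 192.5 CPM in the pair of WT libraries, 87.4 and 101.9 in MLL4 KO, 128.7 and 120.1 in control, and 1896 and 1542 in BAP1 KO. The control libraries lay between the WT libraries, and both BAP1 KO libraries lay at least 8.01-fold above each of the other 6. The log2 fold change of BAP1 KO over control was 3.79 ± 0.38 (SE, n = 2 against 2), which is 13.8-fold. All 7 genes were chosen for rises in BAP1 KO, so values of this comparison are a description without a test. The WT libraries differed from each other by 2.30-fold, more than WT and control differed in the mean.

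SLC16A6 was low in WT. Its 2 WT libraries stood at 6.59 and 4.94 CPM, MLL4 KO at 4.89 and 5.48, control at 9.24 and 7.90, and BAP1 KO at 118.9 and 131.7. Both WT libraries lay below both control libraries, by 1.49-fold in the mean, and the lower BAP1 KO library lay 12.9-fold above the highest of the other 6. The log2 fold change of BAP1 KO was 3.88 ± 0.17 over control and 4.45 ± 0.18 over WT.

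GPR15 was higher in WT than in control. Its levels were 2.56 and 2.09 CPM in the pair of WT libraries, 0.933 and 1.39 in MLL4 KO, 0.274 and 0.308 in control, and 13.8 and 7.98 in BAP1 KO. The control libraries held 7 and 12 reads of GPR15, so the level there is the least certain of the 4 groups. WT exceeded control 8.0-fold in the mean without overlap. The log2 fold change of BAP1 KO was therefore 5.20 ± 0.45 over control but 2.24 ± 0.32 over WT. Markers of T cells, which are known to carry GPR15, summed to 0.926 to 3.55 CPM over all libraries, with CD2, CD3E and CD3G at 0 in each, and to 1.69 and 0.926 CPM in BAP1 KO.

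LNCAROD had the same order of groups at the control end. It stood at 1.43 and 5.41 CPM in the pair of WT libraries, 1.59 and 1.69 in MLL4 KO, 0.353 and 0.436 in control, and 16.5 and 18.9 in BAP1 KO. Its control libraries held 9 and 17 reads. Both WT libraries lay above both control libraries, 8.68-fold in the mean, though they differed from each other by 3.77-fold. The log2 fold change was 5.44 ± 0.57 over control, the largest of the 7, and 2.32 ± 0.41 over WT.

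CDHR3 was low in every group but BAP1 KO. Its WT libraries stood at 1.01 and 0.563 CPM (26 and 18 reads), MLL4 KO at 0.797 and 1.33, control at 0.901 and 1.08, and BAP1 KO at 12.7 and 13.3. WT, MLL4 KO and control overlapped, and the lower BAP1 KO library lay 9.61-fold above the highest of them. The log2 fold change over control was 3.69 ± 0.30. Markers of ciliated airway cells, the usual site of CDHR3, summed to 24.6 to 34 CPM in the other 6 libraries and to 29.3 and 53.8 CPM in BAP1 KO. The higher sum comes from FOXJ1, at 25.2 CPM in BAP1 KO replicate 2 and 2.23 CPM in replicate 1, while CDHR3 was level between these libraries.

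PKIB was lower in WT than in control and lower still in MLL4 KO. It stood at 18.6 and 16.7 CPM in the pair of WT libraries, 5.21 and 5.03 in MLL4 KO, 35.8 and 31.1 in control, and 196 and 330 in BAP1 KO. No groups overlapped. The log2 fold change of BAP1 KO was 2.98 ± 0.23 over control and 3.90 ± 0.24 over WT. The BAP1 KO libraries differed by 1.68-fold, and the log2 fold change over control was 3.31 without BAP1 KO replicate 1 and 2.56 without replicate 2.

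STK39 was not strongly induced against control. It stood at 224 and 213 CPM in the pair of WT libraries, 80.6 and 102 in MLL4 KO, 381 and 379 in control, and 549 and 667 in BAP1 KO. The groups did not overlap and had the same order as those of PKIB. Its log2 fold change over control was 0.68 ± 0.15, or 1.6-fold, and over WT 1.48 ± 0.15, or 2.79-fold. By log2 fold change over control it ranked 2261 of 16831 genes, against ranks 17 to 99 for the other 6 members.

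**Figure D1:**
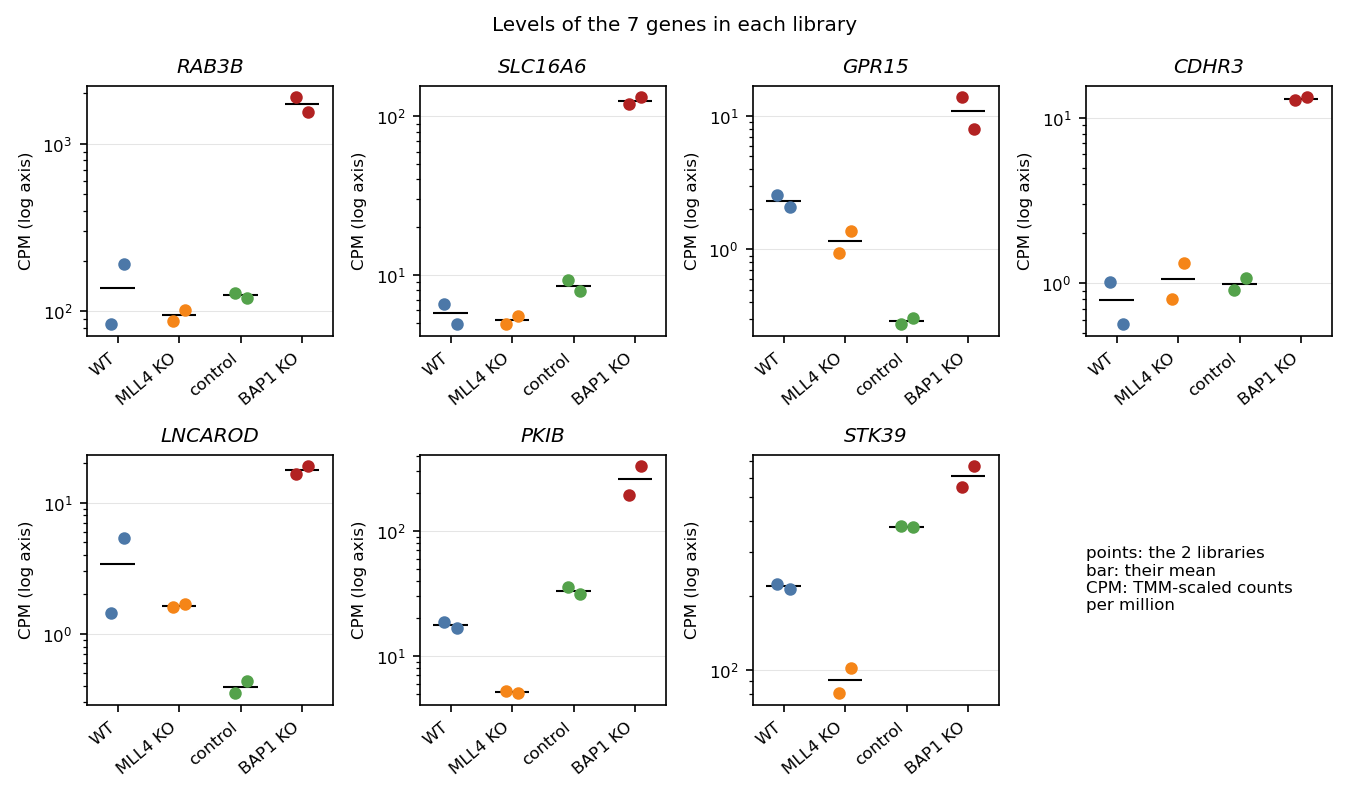
Level of each of the 7 genes in each library, in TMM-scaled CPM on a log axis, by group, with points for the 2 libraries and a bar for their mean. Both BAP1 KO libraries lie above the other 6 in every panel, the control points are lowest for GPR15 and LNCAROD, and the MLL4 KO points are lowest for PKIB and STK39.

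Over the 7 genes, WT was higher than control without overlap for 2 of the 7 (GPR15 and LNCAROD), lower for 3 (SLC16A6, PKIB and STK39) and overlapping for 2 (RAB3B and CDHR3). Over all tested genes, both control libraries lay below both WT libraries for 35.7% and above them for 37.9%. Both BAP1 KO libraries lay above the other 6 for 7 of 7, a count fixed by the choice of the members, beside 13.9% of all tested genes. Of all tested genes, 12.1% were called higher and 10.4% lower in BAP1 KO than in control at an adjusted p under 0.05 (edgeR quasi-likelihood test). The members were chosen for rises in BAP1 KO, so that comparison is not counted for them. Away from the BAP1 KO libraries the 7 did not move as 1 group: over the other 6 libraries, Pearson r between pairs of members ran from -0.83 (SLC16A6 and LNCAROD) to 0.99 (PKIB and STK39).

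The authors' RPKM values, which divide by transcript length and library size, allow the genes to be compared with each other. In BAP1 KO the mean was 147 ± 18.7 for STK39, 122 ± 42.7 for PKIB and 107 ± 16.6 for RAB3B (SD, n = 2). The libraries of PKIB overlapped those of the other two, while STK39 lay above RAB3B in each. SLC16A6 followed at 25.99 ± 1.63, LNCAROD at 14.4 ± 1.27, GPR15 at 3.20 ± 1.25 and CDHR3 at 1.60 ± 0.0327 RPKM, with no overlap between neighbours in this order. In WT the mean was 53.5 RPKM for STK39, 8.60 for RAB3B, 8.29 for PKIB, 2.79 for LNCAROD, 1.21 for SLC16A6, 0.690 for GPR15 and 0.0981 for CDHR3. RAB3B and PKIB overlapped there, as did LNCAROD and SLC16A6. In control GPR15 was last, at 0.0822 RPKM, below CDHR3 at 0.117. Where a member had several transcript rows, the ratio of BAP1 KO over control RPKM was alike in each: 8.10 to 8.15 over 6 rows of PKIB, 13.6 to 14.5 over 2 rows of CDHR3, and 46.5 to 59.5 over 2 rows of LNCAROD. Rows of 1 gene can count the same reads, so these ratios are not separate evidence. The CDHR3 rows, for example, held 386 and 399 reads in BAP1 KO replicate 1.

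The rule that picked the genes named rises in BAP1 KO without a reference group, and it listed levels in MLL4 KO too. Earlier results of these data were also known when the genes were chosen. MLL4 KO against WT was tested, but its p-values are not shown to be independent of that choice. PKIB and STK39 fell, 0 of the 7 rose, and 5 did not pass. The background over all tested genes was 9.13% higher and 10% lower. PKIB fell by 1.78 ± 0.25 on the log2 scale (3.43-fold, adjusted p = 0.00712, edgeR quasi-likelihood test with Benjamini-Hochberg adjustment over all tested genes). STK39 fell by 1.26 ± 0.15 (2.39-fold, adjusted p = 0.00353, edgeR). Both calls held in 20 of 20 alternatives, with a highest adjusted p of 0.046 for each. Both thus fell in MLL4 KO, while their rise in BAP1 KO came with the choice of members.

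The log2 fold changes of the others in MLL4 KO were -1.02 ± 0.41 for GPR15 (adjusted p = 0.105 by edgeR), -1.11 ± 0.50 for LNCAROD (0.145), -0.55 ± 0.34 for RAB3B (0.289), -0.15 ± 0.19 for SLC16A6 (0.600) and 0.43 ± 0.43 for CDHR3 (0.493). Both GPR15 libraries of MLL4 KO lay below both of WT, as for PKIB and STK39. That makes 3 of 7, beside 30.3% of all tested genes. The median of the 7 was -1.02, beside 0.00 for all tested genes. RAB3B and LNCAROD rest on which WT library is used. Without WT replicate 1 their log2 fold changes were -1.03 (adjusted p = 0.00303) and -1.73 (0.00254), and 4 of 7 members were called lower. Without WT replicate 2 they were 0.18 (0.554) and 0.19 (0.78), on the other side of 0. SLC16A6 was at 0.064 (0.813) without WT replicate 1.

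**Figure D2:**
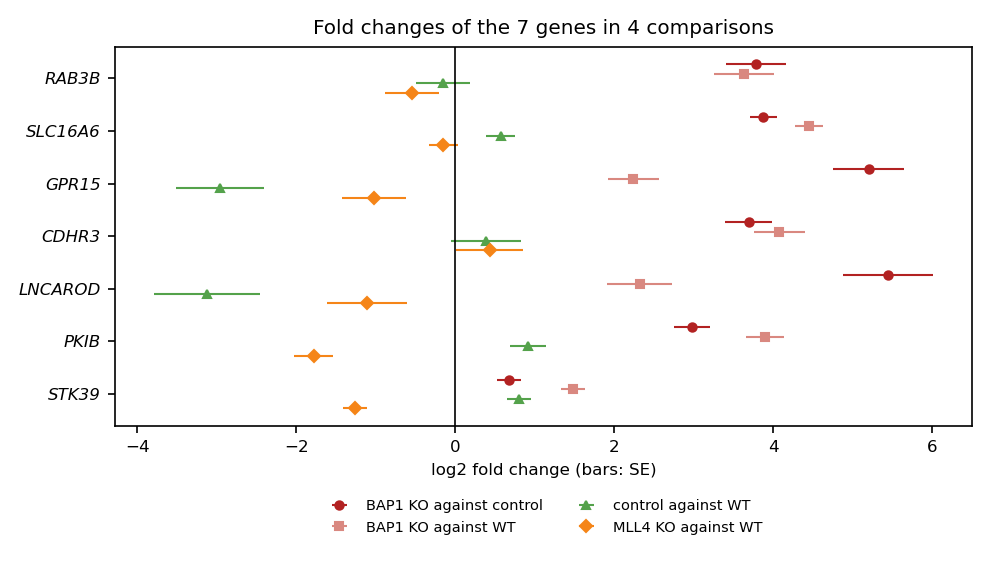
Log2 fold change of each of the 7 genes with its SE in 4 comparisons from 1 fit. The choice of genes named rises in BAP1 KO without a reference group and listed MLL4 KO levels too, and earlier results were known. BAP1 KO points lie right of 0 for every gene, control against WT is near -3 for GPR15 and LNCAROD, and MLL4 KO is clearest below 0 for PKIB and STK39.

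The genes around the members moved unevenly. For distances between genes, a start is taken as the lower genomic coordinate of the gene, whatever its strand. In a minus-strand gene such as LNCAROD that is the end opposite its transcription start. Of 36 tested genes whose start lay within 500 kb of a member's start, 15 rose in BAP1 KO against control (41.7%, beside 12.1% of all tested genes) and 1 fell (2.78%), NAMPT, which makes NAD from nicotinamide (log2 fold change -0.72 ± 0.16). Without control replicate 1 or 2 the count of risen neighbours was 7, and without BAP1 KO replicate 1 it was 9, with 0 fallen in each. The neighbours that held in all 20 alternatives were CPOX, CLDND1, ST3GAL6, DCBLD2, ATXN7L1 and ARSG. A rise over control was not always a rise over WT. ORC1 was at 14.9 and 13.5 CPM in BAP1 KO but at 47.6 and 57 CPM in WT. KPNA2 was at 216 and 160 CPM in BAP1 KO, against 467 and 628 CPM in WT. BPTF and PRKG1-AS1 overlapped WT, and the other risen neighbours lay above both WT libraries. In MLL4 KO 4 neighbours rose (11.1%) and 3 fell (8.33%), beside 9.13% and 10% of all tested genes. These counts dropped in some fits with 1 library left out. Neighbours were taken because of their place beside a selected gene, and this is a description of 6 loci. No tested gene had its lower coordinate within 500 kb of that of STK39.

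Around GPR15, on chromosome 3, 4 of 5 tested neighbours rose in BAP1 KO. CPOX, an enzyme of heme synthesis whose start lies 38.5 kb from that of GPR15, stood at 503 and 542 CPM in the pair of WT libraries, 853 and 671.5 in MLL4 KO, 140.7 and 145.6 in control, and 1177 and 1014 in BAP1 KO. Its log2 fold change in BAP1 KO was 2.94 ± 0.16 (7.65-fold, adjusted p = 1.07e-05, edgeR). Like GPR15, it was lowest in control, and BAP1 KO exceeded each of the other 6 libraries. CLDND1, a claudin-like membrane protein, stood at 187 and 287 CPM in WT, 170.3 and 168.9 in control, and 494.5 and 488.4 in BAP1 KO (log2 fold change 1.53 ± 0.19). ST3GAL6, a sialyltransferase, rose by 1.62 ± 0.26 and DCBLD2, a transmembrane receptor-like protein, by 1.12 ± 0.12. The fifth, ST3GAL6-AS1, had a log2 fold change of 0.42 ± 0.66 (adjusted p = 0.688, edgeR), and reads it shares with ST3GAL6 cannot be told apart without strand. In all 5 the control libraries lay below both WT libraries, as for GPR15 itself, beside 35.7% of all tested genes. In MLL4 KO, ST3GAL6 rose by 1.47 ± 0.24 and CPOX by 0.54 ± 0.14, while GPR15 was at -1.02. The CPOX call in MLL4 KO is lost in 6 of 20 alternatives, among them those without WT replicate 1 (adjusted p = 0.0619) or 2 (0.0888), MLL4 KO replicate 1 (0.122), or control replicate 1 (0.0712) or 2 (0.0791). Only the fit on 4 libraries ends the ST3GAL6 call (0.0746).

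Both tested neighbours of LNCAROD, on chromosome 10, rose in BAP1 KO. DKK1 is a secreted WNT antagonist whose lower coordinate lies 137 kb from that of LNCAROD. Its levels were 115 and 369 CPM in the pair of WT libraries, 380 and 293.5 in MLL4 KO, 20.2 and 18.5 in control, and 450 and 609 in BAP1 KO. It shares with LNCAROD a low control level, a high second WT library and its highest level in BAP1 KO. Its log2 fold change in BAP1 KO was 4.78 ± 0.60 (adjusted p = 0.00376, edgeR; 0.0511 without control replicate 2). In MLL4 KO it was 0.47 ± 0.51 (adjusted p = 0.541, edgeR), beside -1.11 for LNCAROD. PRKG1-AS1, a noncoding RNA at 0.231 to 1.53 CPM, rose by 2.23 ± 0.57 and lost the call without any one of the control or BAP1 KO libraries (adjusted p from 0.0658 to 0.183).

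ARSG, a lysosomal sulfatase gene, overlaps SLC16A6 on chromosome 17, and how reads were assigned to strand is not given, so reads the pair could share cannot be told apart. It stood at 14.2 and 9.75 CPM in the pair of WT libraries, 15.3 and 21.6 in MLL4 KO, 38.2 and 36.0 in control, and 110.5 and 123.5 in BAP1 KO. Its log2 fold change in BAP1 KO was 1.66 ± 0.20, against 3.88 for SLC16A6. The other risen neighbours of SLC16A6 were BPTF, a subunit of the NURF chromatin remodeller (0.65 ± 0.11), KPNA2, an importin (0.94 ± 0.18), AMZ2, a metalloprotease (0.79 ± 0.13), PRKAR1A (0.50 ± 0.11) and MIR635 (2.03 ± 0.52). All 5 lost the call without control replicate 1, with adjusted p from 0.06 to 0.138, and all but AMZ2 also lost it without control replicate 2 (0.062 to 0.202). MIR635, at 0.0388 to 1.15 CPM, lies inside the spans of ARSG, WIPI1 and PRKAR1A, which also overlap each other. Reads that these genes could share cannot be told apart. ATXN7L1, whose start lies 358.5 kb from that of CDHR3, went from 14.4 and 13.3 CPM in the control libraries to 51.6 and 51.6 CPM in BAP1 KO (log2 fold change 1.90 ± 0.14), with WT at 11.1 and 10.3 CPM. SERINC1 beside PKIB rose in both knockouts, by 0.57 ± 0.12 in BAP1 KO and by 0.67 ± 0.12 in MLL4 KO, whereas PKIB moved in opposite directions. The BAP1 KO call of SERINC1 was lost without control replicate 1 (0.11) or 2 (0.09) or BAP1 KO replicate 1 (0.07). Around RAB3B, 1 of 10 rose in BAP1 KO, ORC1 (0.94 ± 0.25), of the origin recognition complex.

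**Figure D3:**
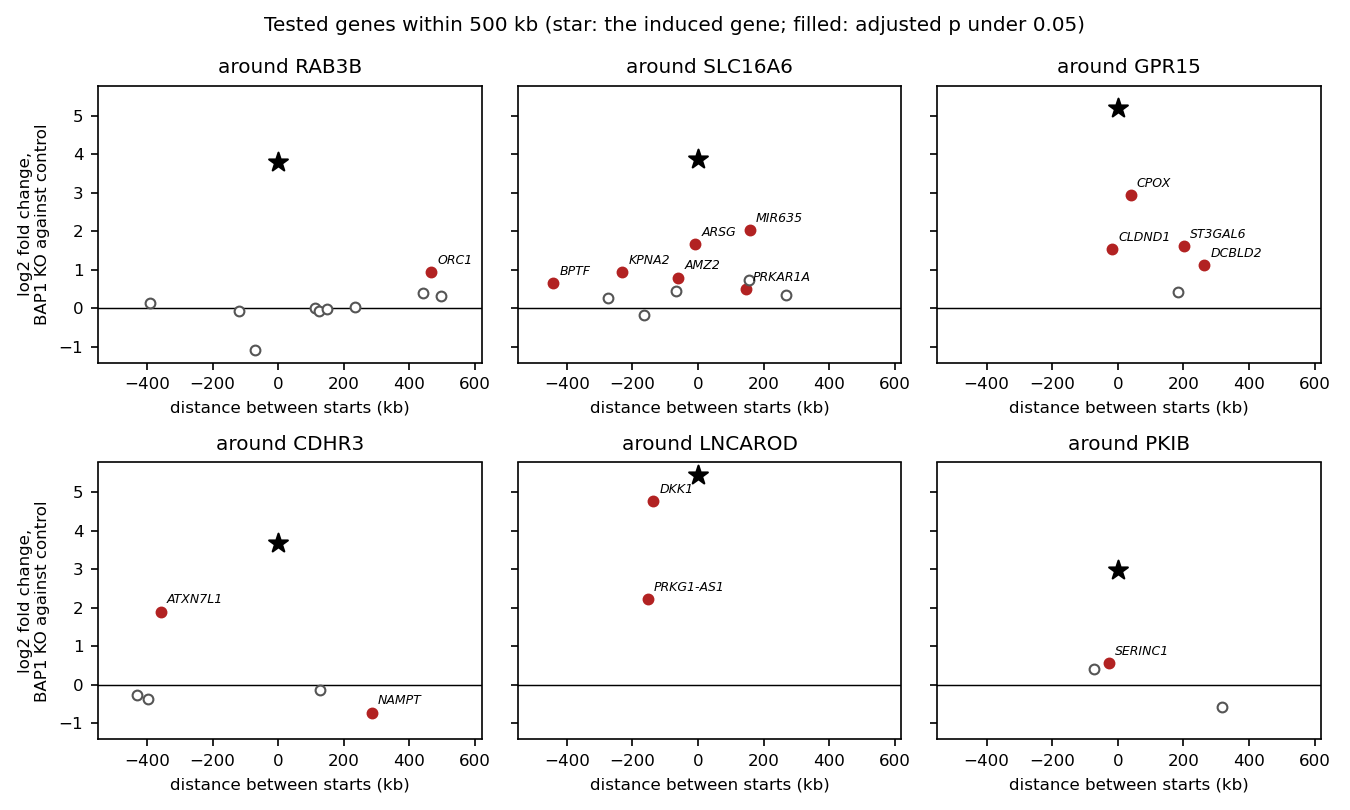
Log2 fold change in BAP1 KO against control of tested genes within 500 kb, by distance from the member, for 6 members. Distances are between starts, taken as lower genomic coordinates. Filled points passed an adjusted p of 0.05, open points did not, and a star marks the member itself. Around GPR15 and LNCAROD most points are filled and lie above 0, and around RAB3B nearly all are open and near 0.

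**Figure D4:**
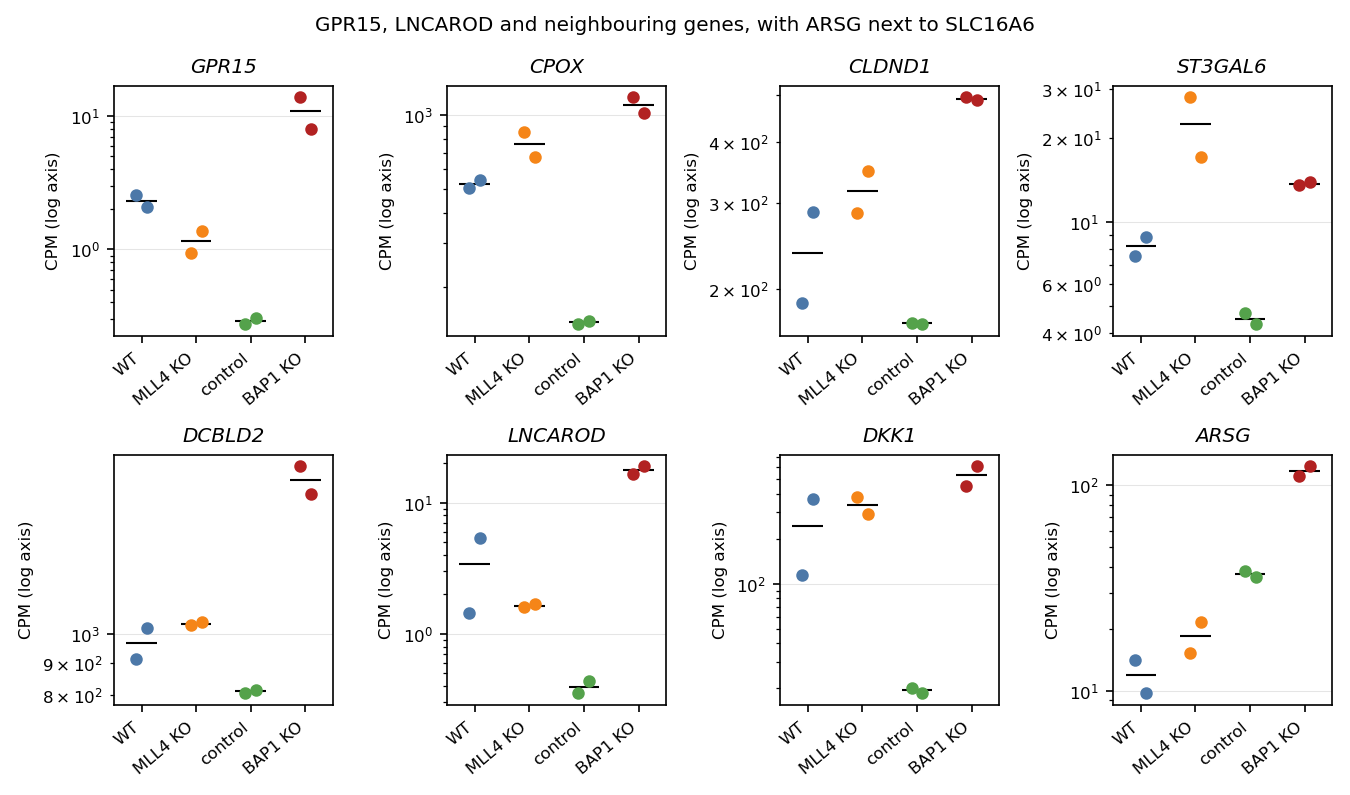
Level in each library, in TMM-scaled CPM on a log axis whose range differs between panels, of GPR15 and 4 of its neighbours, LNCAROD and DKK1, and ARSG; bars are means of 2 libraries. Control is lowest for GPR15, CPOX, CLDND1, ST3GAL6, DCBLD2, LNCAROD and DKK1, while ARSG is lowest in WT.

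Other genes of the members' pathways were counted from 7 lists of 107 genes, of which 89 were tested; DKK1 and PRKAR1A are also among the neighbours. In BAP1 KO against control 17 rose (19.1%) and 8 fell (8.99%), beside 12.1% and 10.4% of all tested genes. The median log2 fold change of the lists was 0.12, beside 0.01 for all tested genes. By list, the share risen in BAP1 KO ran from 0% of 12 tested genes (SLC16A6 list) to 40% of 5 (CDHR3 list). Without control replicate 1 or 2 the counts were 5 and 4 risen and 0 fallen, and without BAP1 KO replicate 1 they were 6 and 0. Without BAP1 KO replicate 2, 2 fell. The calls of MADD, ARRB1 and KREMEN1 held in all 20 alternatives, and every other call in BAP1 KO named from these lists was lost without at least 1 of the control or BAP1 KO libraries. In MLL4 KO 17 rose (19.1%) and 7 fell (7.9%), beside 9.13% and 10% of all tested genes, and 0 of these 24 calls held in all 20 alternatives. The count of risen genes was 7 without WT replicate 2, 4 without MLL4 KO replicate 2, 8 without the first control library and 6 without the second. Fallen genes numbered 15 without WT replicate 1, 1 without WT replicate 2 or either control library, 3 without MLL4 KO replicate 1 or either BAP1 KO library, and 0 without MLL4 KO replicate 2.

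Of 19 tested genes of the RAB3 cycle, 3 rose and 2 fell in BAP1 KO. MADD, an exchange factor that loads RAB3 with GTP, stood at 65.6 and 66.6 CPM in WT, 54.01 and 52.8 in control, and 100.8 and 94.4 in BAP1 KO (log2 fold change 0.87 ± 0.11, adjusted p = 0.000776, edgeR). SYTL4 (granuphilin), an effector on secretory granules, rose by 0.72 ± 0.19, and CHM, a Rab escort protein, by 0.52 ± 0.14. Its paralog CHML was at -0.59 ± 0.17 and RAB27B, another vesicle GTPase, at -1.15 ± 0.36, both lower. The paralogs RAB3A and RAB3D did not pass in BAP1 KO, and RAB3C was not tested. Of 8 neuroendocrine markers, 2 were tested. The sum of all 8 was 15.9 to 72.1 CPM in the other 6 libraries and 174 and 320.5 CPM in BAP1 KO. In BAP1 KO, SCG2, a secretogranin, made up 171 and 318 CPM of it. INSM1 was at 0 in every library, and a part of these cells in the RAB3B level was not tested.

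Of 12 tested monocarboxylate transporters and chaperones, 0 rose in BAP1 KO and 2 fell, the lactate transporters SLC16A1 (-0.48 ± 0.14) and SLC16A3 (-0.44 ± 0.13). In MLL4 KO, where SLC16A6 was at -0.15, SLC16A5 rose by 1.76 ± 0.20 from 63.9 and 43.3 CPM in WT to 207 and 156 CPM (adjusted p = 0.00338, edgeR; 0.0519 in the fit on 4 libraries). BSG, the chaperone of these transporters, also rose, by 0.37 ± 0.11, and SLC16A3, SLC16A7 and SLC16A14 fell by 0.67 ± 0.13, 0.67 ± 0.18 and 0.98 ± 0.25. The BSG call was lost without any one of the 8 libraries. Those of SLC16A7 and SLC16A14 held in 12 of 20 alternatives and that of SLC16A3 in 17. Without WT replicate 2 the adjusted p was 0.187, 0.173 and 0.051, and without MLL4 KO replicate 2 it was 0.127, 0.122 and 0.0833 (edgeR).

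Of 15 tested genes of GPR15 signalling and of the aryl hydrocarbon receptor, which induces GPR15 in T cells, 3 rose and 1 fell in BAP1 KO. ARRB1 rose by 1.06 ± 0.12 (adjusted p = 0.000507, edgeR) and ARRB2 by 0.55 ± 0.12; both encode arrestins that bind activated receptors. GNAI2, an inhibitory G protein subunit, rose by 0.76 ± 0.13. CYP1B1, a target of the aryl hydrocarbon receptor, fell by 1.48 ± 0.36 from a low level of 1.65 and 2.08 CPM. The ligand gene GPR15LG was not tested. In MLL4 KO, ARRB1, GNAI2 and ARNT, the partner of the receptor, rose by 0.49 ± 0.12, 0.56 ± 0.13 and 0.61 ± 0.13. All 3 calls were lost without WT replicate 2 (adjusted p = 0.0949, 0.0854 and 0.0679, edgeR) and without MLL4 KO replicate 2 (0.102, 0.0959 and 0.0837), and those of ARRB1 and GNAI2 also without either control library.

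Of 5 tested genes of the cadherin-related family and the brush border complex, 2 rose in BAP1 KO: USH1C (harmonin), the scaffold of that complex, by 0.77 ± 0.24, and CALML4, a light chain bound to it, by 0.61 ± 0.16. USH1C lost its call in 11 of 20 alternatives. It rose by 1.26 ± 0.24 in MLL4 KO, where CDHR3 did not pass, and held that call in 18 of 20 alternatives (adjusted p = 0.0674 without MLL4 KO replicate 2, edgeR).

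Of 10 tested genes of WNT antagonism and feedback, 3 rose in BAP1 KO: DKK1, its receptor KREMEN1 and NKD1, a feedback inhibitor. KREMEN1 stood at 69.6 and 64.8 CPM in the pair of WT libraries, 139 and 115.5 in MLL4 KO, 44.2 and 46.2 in control, and 119 and 106 in BAP1 KO. It rose by 1.32 ± 0.13 in BAP1 KO (adjusted p = 0.000302, edgeR) and by 0.92 ± 0.13 in MLL4 KO (0.00673; 0.0704 in the fit on 4 libraries). NKD1 rose by 0.87 ± 0.17 and 0.94 ± 0.16. RNF43, a ubiquitin ligase that removes WNT receptors, fell by 2.68 ± 0.64 in BAP1 KO, with WT libraries at 112 and 32.2 CPM that differ from each other. NOTUM and LRP5 rose in MLL4 KO, by 1.22 ± 0.29 and 0.48 ± 0.12, and each call held in 15 of 20 alternatives but not without WT replicate 2 (adjusted p = 0.0815 and 0.0925, edgeR), MLL4 KO replicate 2 or either control library.

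Of 15 tested protein kinase A genes, 5 rose and 0 fell in BAP1 KO. PKIA, a paralog of PKIB, went from 2.08 and 1.28 CPM in the control libraries to 5.55 and 4.49 CPM in BAP1 KO (log2 fold change 1.63 ± 0.31), close to WT at 4.61 and 3.44 CPM. The catalytic subunit PRKACA rose by 0.51 ± 0.13. The regulatory subunits PRKAR1A and PRKAR2B rose by 0.50 ± 0.11 and 0.95 ± 0.17, and the CREB coactivator CRTC1 by 0.51 ± 0.15. In MLL4 KO, where PKIB fell, PRKACA rose by 0.60 ± 0.13 (held in 16 of 20 alternatives, adjusted p = 0.0677 without WT replicate 2, edgeR) and CRTC1 by 1.08 ± 0.15, and PKIA did not pass (0.43 ± 0.26).

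Of 13 tested genes of the WNK pathway, 1 rose and 2 fell in BAP1 KO. The cotransporter gene SLC12A7 rose by 0.39 ± 0.12, CAB39 (MO25), the scaffold that activates STK39, was at -0.58 ± 0.17, and KLHL2, an adaptor for WNK degradation, at -0.59 ± 0.16. In MLL4 KO, CAB39 and the upstream kinase WNK2 fell with STK39, by 0.57 ± 0.17 and 0.96 ± 0.25, and SLC12A4 rose by 0.65 ± 0.14. The CAB39 and WNK2 calls in MLL4 KO each held in 12 of 20 alternatives and that of SLC12A4 in 16. Without WT replicate 2 the adjusted p was 0.212, 0.164 and 0.0857, and without MLL4 KO replicate 2 it was 0.131, 0.172 and 0.0971 (edgeR).

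**Figure D5:**
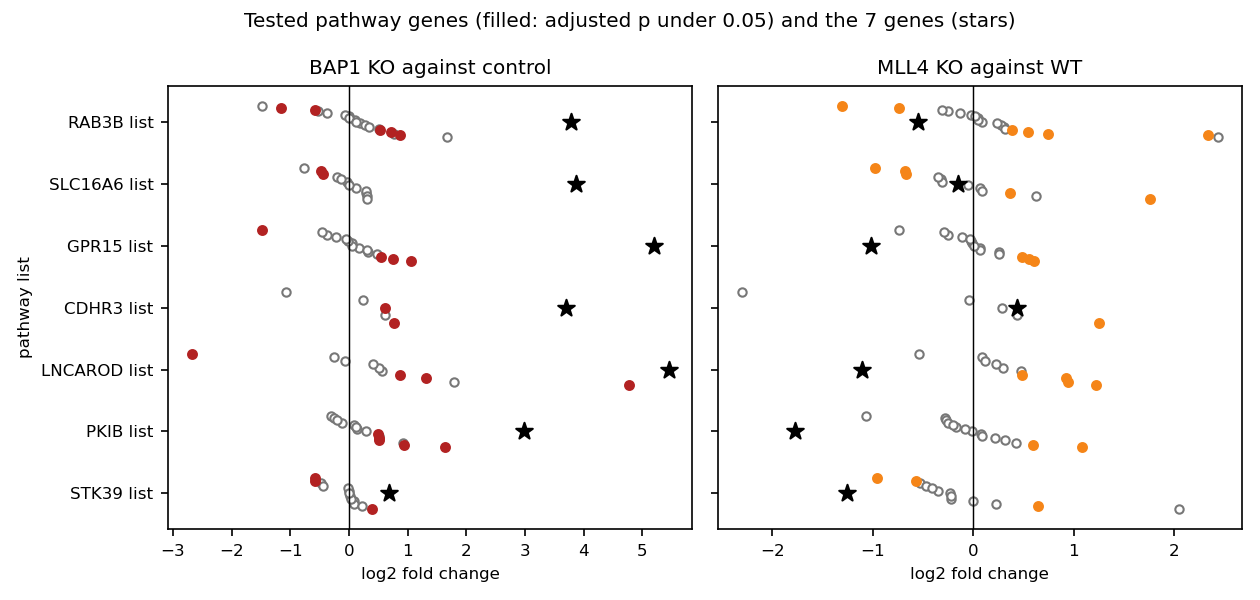
Log2 fold change of each tested pathway gene, one row per list, in BAP1 KO against control (left) and MLL4 KO against WT (right); filled points passed an adjusted p of 0.05 and stars mark the 7 genes. Most pathway genes lie near 0 in both panels. On the left DKK1, at 4.78, is the pathway gene farthest right, and the star of STK39 alone lies among the pathway genes.

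By the profile over the 8 libraries, the gene most like each member was EHD1 for RAB3B (Pearson r = 0.977), ATXN7L1 for both SLC16A6 and CDHR3 (0.990), ENC1 for GPR15 (0.997), KCTD9 for LNCAROD (0.988), ANXA2P2 for PKIB (0.982) and ALDH3A2 for STK39 (0.995). Others named by the same measure were SNAPC3 for RAB3B, SAP30L and ITGA10 for SLC16A6, EMP3 and TRIM59-IFT80 for GPR15, DST and IQSEC2 for CDHR3, KLHL20 and TRIP12 for LNCAROD, ANXA2 and RCOR2 for PKIB, and ARPC3 and ZNG1E for STK39. ANXA2P2 is a pseudogene of ANXA2 and TRIM59-IFT80 a readthrough of its 2 named genes, so either may hold reads of those. These r describe log2(CPM + 1) over the same 8 libraries, which include the BAP1 KO libraries that the choice of the members used. A high r does not mean a rise of like size. The log2 fold change of BAP1 KO over control was 0.37 for ALDH3A2, 0.48 for EHD1, 0.59 for ANXA2P2 and 0.84 for KCTD9. It was 1.90 for ATXN7L1 and 3.22 for ENC1, and the members ran from 0.68 to 5.44. Among the other genes like STK39, it was 0.07 ± 0.10 for ZNG1E and 0.15 ± 0.11 for ARPC3. ENC1, an actin-binding protein, followed GPR15 in each group, with 80.0 and 58.3 CPM in the pair of WT libraries, 34.5 and 45.6 in MLL4 KO, 24.1 and 25.7 in control, and 284 and 181 in BAP1 KO. ALDH3A2, a fatty aldehyde dehydrogenase, had the group order of STK39, with 81.1 and 82.8 CPM in the pair of WT libraries, 49.2 and 60.7 in MLL4 KO, 117.5 and 114.7 in control, and 139 and 161 in BAP1 KO.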

How the data were processed

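Polyadenylated RNA of HCT116 cells was sequenced in 8 libraries, grouped by sample title. Per the file headers, the authors deposited for each library a whole-number read count and an RPKM value per RefSeq transcript, not normalized between libraries beyond RPKM's own scaling. The build is hg38 per the submitters' processing notes, which also list bcl2fastq, Bowtie2, STAR and SICER 1.1. The counter, the strand setting and the annotation release were not given in the sources used here. The ChIP-seq samples were not used here.

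Of 88819 rows, 605 had no symbol in the RefSeq gene table (GRCh38.p14) and were left out (0.23% to 0.252% of counts). The row with the highest mean count stood for each gene. Counts were fitted in R 4.3.3 with edgeR 4.0.16 (filterByExpr, TMM, robust quasi-likelihood, 8 libraries, 1 mean per group), two-sided, with Benjamini-Hochberg adjustment over 16831 genes and a threshold of 0.05. Each SE is the size of the log2 fold change divided by the root of its F statistic. The fit was tested on simulated data. The alternatives included limma 3.58.1 (voom) and DESeq2 1.42.0. RPKM entered no test, and shared reads of overlapping genes stay undivided.

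The members, lists and tests were chosen with earlier results of these data known. Named are all members, pathway genes and neighbours (starts within 500 kb) past the threshold, and per member the 3 genes of highest r with at least 5 CPM in the mean, leaving out LOC, LINC and MIR symbols; 1 gene named by this rule is not reported here. CD2, CD3E and other markers are from the marker lists. Fibroblast markers summed to 26.0 to 55.2 CPM, with DCN and LUM at 0.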

Additional observations from a re-analysis of the deposited data

How the results depend on the processing

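Over 20 alternatives, 135 of 140 values of the 7 genes in MLL4 KO against WT kept their direction and side of the threshold; the exceptions were RAB3B, LNCAROD and SLC16A6 without 1 WT library. Leaving out a library gave -1.03 to 0.18 for RAB3B, -1.73 to 0.19 for LNCAROD and -0.35 to 0.064 for SLC16A6. In BAP1 KO against control, 137 of 140 values moved by less than 1 SE of the fitted log2 fold change; GPR15 ran from 4.75 to 5.54 and PKIB from 2.56 to 3.31. The causes were not tested.

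Counts moved most with the number of libraries. In the fit on the 4 libraries of a comparison, MLL4 KO had 46 genes higher and 14 lower, 0 and 0 pathway genes, and 0 and 0 neighbours, while BAP1 KO had 3390 higher and 3270 lower and 26 and 17 pathway genes. Without 1 library, MLL4 KO had 366 to 2491 higher and 150 to 2799 lower in all, 2 to 4 members lower, 4 to 19 pathway genes higher and 0 to 15 lower, and 2 to 5 neighbours higher and 0 to 6 lower. BAP1 KO had 548 to 2695 higher and 527 to 2322 lower, 4 to 23 pathway genes higher and 0 to 12 lower, and 7 to 18 neighbours higher and 0 to 1 lower.

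Same-numbered libraries did not deviate together in the pairs of groups checked (r = -0.134 for WT and MLL4 KO, 0.00288 for control and BAP1 KO). This does not show whether they were prepared together. With the replicate block, MLL4 KO had 1170 genes higher and 1190 lower and BAP1 KO 1766 and 1546, and PKIB and STK39 were at -1.78 and -1.27. With the numbers crossed, a block added after seeing the data, the counts were 1707 and 1853 for MLL4 KO and 2100 and 1814 for BAP1 KO. Low counts limit GPR15 and LNCAROD in control most.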
